A study of Caenorhabditis elegans with 12 samples.

Results

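Cd exposure that lasted from L1 to L3 was examined in 6 of the 12 poly-A RNA-seq libraries of the series, chosen by their titles as the 3 libraries of unexposed L3 larvae and the 3 libraries of L3 larvae given Cd. All animals were *Caenorhabditis elegans* of the wild-type strain N2, synchronized as L1 and grown on *Escherichia coli* OP50, and no group carried a mutation or transgene. The unexposed group received 0 µM CdCl2 and the exposed group 20 µM CdCl2 in the food for 27 h. The other 6 libraries came from L4 larvae treated alike for 47 h and were used only to set the L3 values beside them. The comparison asked which transcripts of a larva that has passed through earlier moults with Cd in its food differ from those of a larva of the same age without it. Each library came from a whole-animal population, so fewer cells of a type and less RNA per cell cannot be told apart.

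Larvae of *C. elegans* pass through stages separated by moults. In each cycle the epidermis builds a new cuticle in waves of transcription, with early and late collagens, hedgehog-related proteins, patched-related proteins and astacin proteases each peaking at their own time. Cd enters through the intestine, where metallothioneins bind it and where zinc, iron and heme transport, lysosomal enzymes and fat breakdown take place. Genes of the fasting response, such as acyl-CoA synthetases and lysosomal lipases, are also expressed there.

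The deposited values were raw counts per gene, and levels are given here as CPM, that is counts scaled to a common library size with TMM factors. Totals lay between 23899991 and 33925979 counts in unexposed larvae and between 31072077 and 37796672 in exposed larvae. An entry without a gene name held 2.01% of the counts of unexposed replicate 1 and at most 0.0970% in the other 5 libraries. Sperm markers summed to between 3.55 and 5.37 CPM in the L3 libraries, with 10 of 18 at no more than 3 counts in each of them, against at least 1771.7 CPM in every L4 library. Intestinal, epidermal, muscle and neuronal markers were present in every L3 library. The 1 label field of the exposed libraries that names a Cd level of 0 goes against their titles and treatment, and *mtl-1* was higher in all 3 of them.

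Unexposed replicate 3 stood apart from its group. On the first principal component, which held 65.6% of the variance of the 6 libraries, the unexposed libraries lay at -51.2, -43 and -1.47 and the exposed libraries at 40.8, 32.9 and 22.1. Its summed epidermal markers lay within its group, at 1169 CPM against 1225 and 1127 CPM in unexposed replicates 1 and 2, while the exposed libraries lay between 828 and 972 CPM. Other epidermal sums did not. Its *col* collagen genes summed to 32514 CPM against 50048 and 48435 CPM, with 21576 to 27172 CPM in the exposed libraries. Its moulting effectors, which build or shed the cuticle, summed to 10739.5 CPM against 7226 and 6996 CPM, with 9208 to 10290 CPM in the exposed libraries. Its summed pharyngeal markers were the lowest of the 6 libraries at 918 CPM. The counts of calls in the gene lists below are therefore also given without this library, the only one whose removal raised the total.

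Many more transcripts were called lower than were called higher in Cd-exposed L3 larvae. Of 15024 genes tested, 37 were called higher (0.246%) and 508 were called lower (3.38%), together 545 (3.63%). A call needs an adjusted p of at most 0.05 in the quasi-likelihood test of edgeR, adjusted after Benjamini and Hochberg, and a log2 fold change of at least 1 in size. The 37 higher genes had a median log2 fold change of 1.34 and 8 of them reached a size of 2. The 508 lower genes had a median of -1.88, and 212 reached a size of 2. The median over all genes tested was 0.01, with 7648 genes above 0 and 7376 below. The groups did not overlap for any of the 545 called genes. Separation noted below for a called gene therefore adds nothing to its call. Of all genes tested, called or not, 32.9% had groups that did not overlap, 15.8% with higher and 17.1% with lower exposed levels. The lower genes were not confined to weakly expressed ones, with a median level of 12.3 CPM against 15 CPM for all genes tested. Without the fold minimum, 205 genes (1.36%) passed the adjusted p with a higher level and 776 (5.17%) with a lower level. At an unadjusted p of 0.05, 11% of all genes tested were higher and 15% lower, and shares near these are the background of every list.

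**Figure D1:**
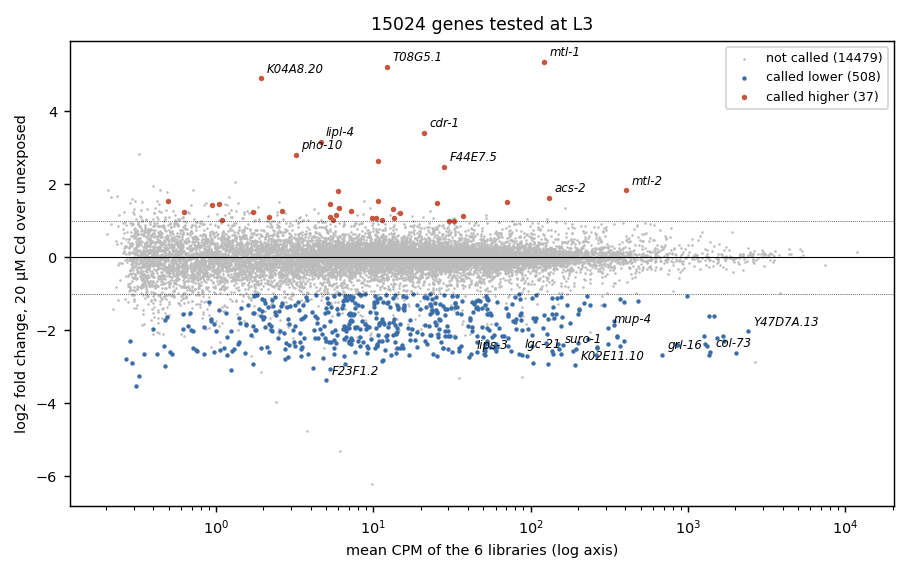
Mean level (CPM, log axis) against log2 fold change (Cd-exposed over unexposed) for the 15024 genes tested at L3, 1 point per gene. The 508 genes called lower (blue) span nearly the whole range of levels with changes of up to 3.53 in size on the log2 scale, and the 37 called higher (red) reach 5.36 for *mtl-1*.

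The number of calls rested on single libraries. Without unexposed replicate 3, 373 of 15304 genes were called higher (2.44%) and 894 lower (5.84%), together 1267 (8.28%), and these included all 545 genes called with the 6 libraries. Without unexposed replicate 1 the calls were 14 higher and 148 lower, and without exposed replicate 3 they were 18 higher and 236 lower. The fits that left out unexposed replicate 2, exposed replicate 1 and exposed replicate 2 called 0 genes lower and 5, 6 and 5 higher, while 691, 757 and 783 genes were lower past the fold minimum at an unadjusted p of 0.05. Every lower gene named here as called is therefore a call that is lost in those 3 fits. List counts given below without unexposed replicate 3, singled out after its values were seen, show only the direction of more calls. When another library was left out, the hedgehog-related list had 0 to 11 lower calls and the *col* list 0 to 17. DESeq2's Wald test called 90 genes higher (0.615% of 14638) and 677 lower (4.62%), among them 539 of the 545 genes.

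*mtl-1*, *T08G5.1*, *cdr-1*, *F56C3.9* and *F44E7.5* were called in the fit of 6 libraries and in each of the 6 fits that left a library out. The metallothionein gene *mtl-1* (chromosome V, 6691371 to 6691863) was measured at 5.19, 5.83 and 6.36 CPM in the unexposed libraries and 236, 217 and 261 CPM in the exposed ones. Its log2 fold change was 5.36 (SE 0.12, adjusted p = 4.2e-06). *cdr-1*, named for its response to Cd, stood at 3.65, 3.60 and 3.62 CPM without Cd and at 38.5, 40.3 and 37.1 CPM with it, a log2 fold change of 3.41 (SE 0.09, adjusted p = 4.57e-06). Neither gene overlapped between groups, and unexposed replicate 3 lay beside the other unexposed libraries for both.

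The other 3 of these genes have only sequence names in the files. *F44E7.5* (chromosome V, 5778818 to 5780947) had 9.24, 8.08 and 8.41 CPM in unexposed larvae and between 46 and 49.4 CPM in exposed larvae, a log2 fold change of 2.48 (SE 0.09, adjusted p = 3e-05). *F56C3.9* (chromosome X, 1391800 to 1393991) had 3.39, 2.85 and 2.68 CPM against 21.5, 16 and 17.6 CPM, a log2 fold change of 2.63 (SE 0.16, adjusted p = 0.00134). For *T08G5.1* the unexposed libraries held 0.66, 0.72 and 0.54 CPM and the exposed ones 23.6, 24 and 24.4 CPM. The exposed libraries lay close together for *F44E7.5* and *T08G5.1* and further apart for *F56C3.9*, and none of the genes overlapped between groups.

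Genes of metal and heme handling made up a small group of higher calls. Of 21 tested genes of the metal handling list 5 were called higher (*mtl-1*, *cdr-1*, *mtl-2*, *zipt-2.3*, *ftn-1*) and 0 lower, with 6 higher and 1 lower without unexposed replicate 3. The second metallothionein gene *mtl-2* had 206, 185 and 140 CPM in unexposed larvae and 651, 540 and 711 CPM in exposed larvae (log2 fold change 1.84, SE 0.16, adjusted p = 0.0124). *zipt-2.3*, of the ZIP family of zinc transporters, had 3.92, 4.63 and 7.80 CPM against 15.8, 15.9 and 16.4 CPM (log2 fold change 1.55, SE 0.24, adjusted p = 0.0154). Unexposed replicate 3 was the lowest of its group for *mtl-2* and the highest for *zipt-2.3*, and neither gene overlapped. *hizr-1*, the nuclear receptor that senses high zinc, and *cdf-2*, a zinc transporter that it controls, passed the adjusted p without reaching the fold minimum, with log2 fold changes of 0.95 (adjusted p = 0.0149) and 0.59 (adjusted p = 0.0267).

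The ferritin gene *ftn-1*, which encodes the iron storage protein of the intestine, had 15.6, 10.2 and 14.1 CPM in unexposed larvae and 44.2, 34.4 and 33.8 CPM in exposed larvae. Its log2 fold change was 1.5 (SE 0.18, adjusted p = 0.0124). *hrg-2*, which acts in heme use in the epidermis, had 2.33, 1.29 and 4.19 CPM against 12.4, 8.48 and 6.88 CPM (log2 fold change 1.83, SE 0.41, adjusted p = 0.0452). Both genes were higher in each exposed library than in any unexposed one, and the exposed libraries varied more for *hrg-2*. These were the 2 called genes among 15 tested of the iron and heme list, of which 0 were lower. Without unexposed replicate 3 the list had 4 higher calls.

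**Figure D2:**
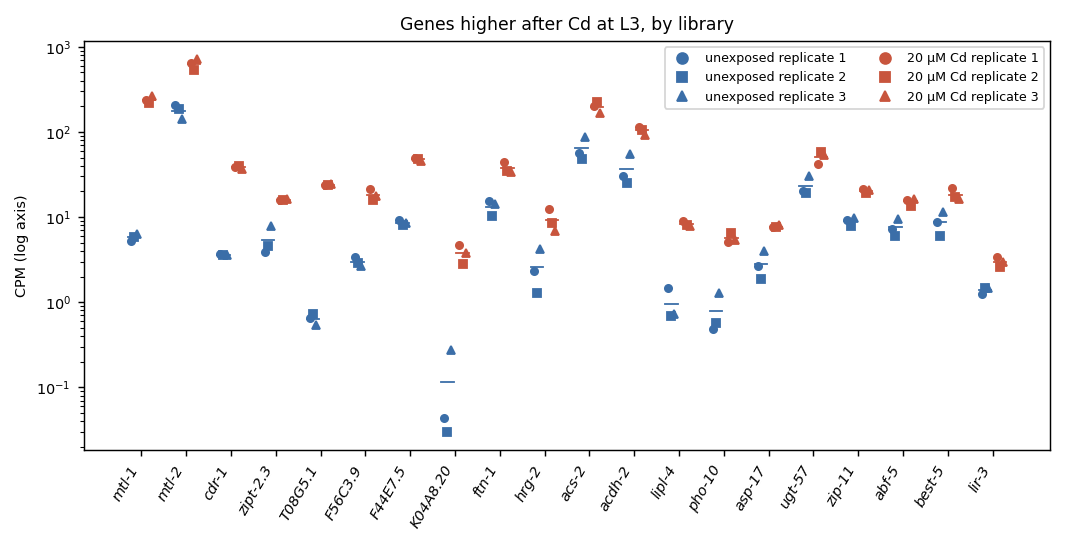
CPM (log axis) in each L3 library for 20 genes called higher after Cd, 3 unexposed (blue) and 3 exposed (red) libraries per gene, with the symbol giving the replicate number and a short line the group mean. The groups do not overlap for any gene, as for all 37 higher genes. Unexposed replicate 3 (blue triangle) is the unexposed library nearest to the exposed ones for 25 of those 37.

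Fat breakdown genes were called in both directions. Among 24 tested lipases 1 (4.17%) was called higher and 5 (20.8%) lower (median log2 fold change -0.31). Among 53 tested genes of fatty acid activation and beta-oxidation 2 (3.77%) were called higher and 3 (5.66%) lower (median -0.06). Over all genes tested 0.246% were called higher and 3.38% lower. Without unexposed replicate 3 the lipases had 2 higher (8.33%) and 7 lower (29.2%) calls. The second list then had 2 (3.77%) and 5 (9.43%), against 2.44% and 5.84% of all genes. The lysosomal acid lipase gene *lipl-4* (chromosome V, 6550171 to 6551817) had 1.45, 0.69 and 0.72 CPM in unexposed larvae and 9, 8.12 and 7.77 CPM in exposed larvae, a log2 fold change of 3.16 (SE 0.27, adjusted p = 0.0117). *K04A8.20*, which ends just before *lipl-4* on the same strand (6549448 to 6549894), had 1, 1 and 9 counts against 188, 89 and 134 counts. At so few counts its fitted log2 fold change of 4.91 (SE 0.53) is imprecise, and it was 6.59 without unexposed replicate 3.

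*acs-2*, an acyl-CoA synthetase of mitochondrial fat breakdown, had 55.9, 47.7 and 88.1 CPM in unexposed larvae and 201, 227 and 166 CPM in exposed larvae (log2 fold change 1.63, SE 0.23, adjusted p = 0.0133). *acdh-2*, an acyl-CoA dehydrogenase, had 30.1, 25.2 and 54.4 CPM against 113, 106 and 92.5 CPM (log2 fold change 1.51, SE 0.27, adjusted p = 0.0221). For both genes unexposed replicate 3 was the highest unexposed library and exposed replicate 3 the lowest exposed one, and the groups stayed apart. Lower calls of the same list fell on *acdh-6*, on *acox-1.2*, a peroxisomal acyl-CoA oxidase, and on *acs-20*, a fatty acid transport protein homolog that the cuticle barrier needs. *acox-1.2* had 342, 350 and 203 CPM without Cd and 101, 107 and 118 CPM with it (log2 fold change -1.46, SE 0.20, adjusted p = 0.013), and *acs-20* had a log2 fold change of -1.41 (SE 0.17, adjusted p = 0.0124). The lower lipases belonged to the *lips* family, in which 5 of 13 tested genes were called lower. *lips-3* had 91.7, 86 and 38.1 CPM against 9.67, 9.66 and 14.6 CPM (log2 fold change -2.67, SE 0.35, adjusted p = 0.0124).

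Some enzymes of sugar metabolism had a higher level in exposed larvae without reaching the fold minimum. Of 22 tested genes of glycolysis and gluconeogenesis 0 were called, with 13 higher and 1 lower at an unadjusted p of 0.05. Their median log2 fold change was 0.29, with 3 genes below 0. Over all genes tested 1.36% passed the adjusted p with a higher level and 5.17% with a lower one. In this list 7 passed it with a higher level and 0 with a lower one. These 7 were *gpd-2*, *gpd-3*, *aldo-2*, *pyc-1*, *fbp-1*, *pck-1* and *pck-2*, with log2 fold changes from 0.34 for *pck-2* to 0.62 for *pyc-1*. *gpd-3*, a glyceraldehyde-3-phosphate dehydrogenase, had 408, 382 and 458 CPM in unexposed larvae and 556, 613 and 575 CPM in exposed larvae (log2 fold change 0.48, SE 0.09, adjusted p = 0.022). *gpd-2* and *gpd-3* are close copies, and how reads shared by such genes were counted is not given in the sources used here. In the tricarboxylic acid and glyoxylate cycles *icl-1*, *mdh-1* and *cts-1* passed the adjusted p among 27 tested genes, with log2 fold changes of 0.57, 0.44 and 0.35. The groups did not overlap, with higher exposed levels, for 15 of 22 and 12 of 27 genes of these lists, against 15.8% of all genes tested. Neither list had a call without unexposed replicate 3. The regulatory gamma subunits *aakg-1* and *aakg-4* of AMP-activated kinase stood at 0.55 (adjusted p = 0.0321) and 0.66 (adjusted p = 0.0424), both under the fold minimum. No count over all subunits of this kinase is given here.

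Some sphingolipid enzymes and a few genes of the methionine cycle had a lower level in exposed larvae. Of 25 tested sphingolipid enzymes 1 (4%) was called lower, near the 3.38% of all genes tested. Without the fold minimum 6 passed the adjusted p with a lower level, against 5.17% of all genes tested. The list median was -0.25, and 2 were called lower without unexposed replicate 3. The acid sphingomyelinase gene *asm-3* (chromosome IV, 520214 to 523809) had 12.8, 16.4 and 12.9 CPM in unexposed larvae and 4, 5.95 and 4.85 CPM in exposed larvae (log2 fold change -1.51, SE 0.18, adjusted p = 0.0124). Unexposed replicate 3 lay within its group for this gene. The others were the serine palmitoyltransferase *sptl-2* (-0.73), the ceramide glucosyltransferase *cgt-1* (-0.73), the ceramide synthase *hyl-1* (-0.68), the ceramidase *asah-2* (-0.49) and *gba-4* (-0.80), of the glucocerebrosidase family. In the methionine and folate cycle 0 of 22 tested genes were called, 4 were higher and 7 lower at an unadjusted p of 0.05, and 4 passed the adjusted p with a lower level. The median of this list was 0.06, with 13 genes above 0 and 9 below, and it had 0 calls without unexposed replicate 3. They were the methionine synthase *metr-1* (-0.45), its reductase *mtrr-1* (-0.74), the S-adenosylmethionine synthetase *sams-3* (-0.37) and *dao-3* (-0.77).

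The remaining higher genes were of mixed function. *pho-10*, of the acid phosphatase family, had 0.48, 0.57 and 1.3 CPM in unexposed larvae and 5.07, 6.52 and 5.40 CPM in exposed larvae (log2 fold change 2.81, SE 0.34, adjusted p = 0.0124). Its relative *pho-9* was called lower at -1.96, so the family of 18 tested genes had 1 call in each direction, and 3 higher and 1 lower without unexposed replicate 3. *zip-11*, a bZIP transcription factor, had 9.24, 7.87 and 9.67 CPM against 21.4, 19.3 and 20.9 CPM (log2 fold change 1.2, SE 0.11, adjusted p = 0.0124). It was the 1 higher call among 155 tested genes of the homeobox, bHLH, bZIP and zinc finger list, which had 3 lower calls, and 3 higher and 5 lower without unexposed replicate 3. Single higher calls also fell on the aspartyl protease *asp-17* (1.45), the UDP-glucuronosyltransferase *ugt-57* (1.12), the bestrophin family member *best-5* (1.07), the antibacterial factor related *abf-5* (1.02) and the F-box pseudogene *fbxa-187* (1.03). Of the 37 higher genes 20 (54.1%) had only a sequence name, against 48.5% of all genes tested.

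Hedgehog-related genes, which encode secreted proteins, had a high share of lower calls. Of 45 tested *wrt*, *grd*, *grl* and related genes 18 (40%) were called lower and 0 higher, with a median log2 fold change of -0.97, and without unexposed replicate 3 the counts were 24 lower and 1 higher of 49. *grl-16* had 1535, 1415 and 619 CPM in unexposed larvae and 133, 178 and 247 CPM in exposed larvae (log2 fold change -2.68, SE 0.38, adjusted p = 0.013). *wrt-8* had 21.9, 28.3 and 9.49 CPM against 1.94, 2.85 and 3.57 CPM (log2 fold change -2.84, SE 0.42, adjusted p = 0.0141). In both genes unexposed replicate 3 lay between the other unexposed libraries and the exposed ones, without overlap. The median was -1.05 over 16 *grd* genes, of which 6 were lower, and -1.04 over 18 *grl* genes, of which 7 were lower.

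Patched-related genes encode sterol-sensing transmembrane proteins of the epidermis, which in the worm are studied with the hedgehog-related ligands. Of 30 tested genes 9 (30%) were called lower and 0 higher, and all 9 were *ptr* genes, with the same 9 lower calls and 2 higher calls without unexposed replicate 3. *ptr-16* had 54.6, 57 and 29.9 CPM without Cd and 6.94, 6.91 and 11.2 CPM with it (log2 fold change -2.5, SE 0.30, adjusted p = 0.0124). *ptr-6* (-2.14) and *ptr-17* (-2.1) showed the same order of libraries, with unexposed replicate 3 lowest of its group and exposed replicate 3 highest of its own.

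Secreted proteases and their relatives formed another lower group. Of 29 tested astacin metalloproteases 11 (37.9%) were called lower and 0 higher (median log2 fold change -0.77), and 14 were lower without unexposed replicate 3. *nas-36*, which is needed to shed the old cuticle, had 101, 112 and 52.7 CPM in unexposed larvae and 18, 15.6 and 20 CPM in exposed larvae (log2 fold change -2.31, SE 0.27, adjusted p = 0.0124). *nas-13* (-2.66), *nas-23* (-2.63) and *nas-12* (-2.51) had the largest changes of the family. The zinc carboxypeptidase *suro-1* had 303, 329 and 146 CPM against 35.9, 42.9 and 57.6 CPM (log2 fold change -2.51, SE 0.32, adjusted p = 0.0124). The ADAMTS protease *adt-1* had a log2 fold change of -2.33 (SE 0.33, adjusted p = 0.013), and *bli-5*, a Kunitz-type protease inhibitor, one of -1.93 (SE 0.23, adjusted p = 0.0124). Among 43 tested carboxypeptidases and other peptidases 3 were lower and 0 higher, and among 24 cathepsins and aspartyl proteases *asp-17* was the single call. The counts without unexposed replicate 3 were 5 lower in the first list and 2 higher and 1 lower in the second. All 31 tested proteasome subunits were without a call, also without unexposed replicate 3, and 0 had an unadjusted p of at most 0.05 in either direction.

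Acyltransferases and esterases were also among the lower genes. Of 27 tested *oac* genes, which encode O-acyltransferase homologs of the membrane, 6 (22.2%) were lower and 0 higher, with a median of -0.43, and 9 were lower without unexposed replicate 3. *oac-30* had 11, 12 and 5.63 CPM without Cd and 0.65, 1.22 and 1.54 CPM with it (log2 fold change -3.08, SE 0.39, adjusted p = 0.0124). The carboxylesterase *cest-1* (chromosome V, 14163260 to 14166730) had 54.4, 56.8 and 27.8 CPM against 11.5, 13.2 and 12.9 CPM, a log2 fold change of -1.89 (SE 0.26, adjusted p = 0.0129). *lact-7* (-2.40) and *lact-8* (-2.17), of the beta-lactamase domain family, were the 2 lower calls among 8 tested, with or without unexposed replicate 3.

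**Figure D3:**
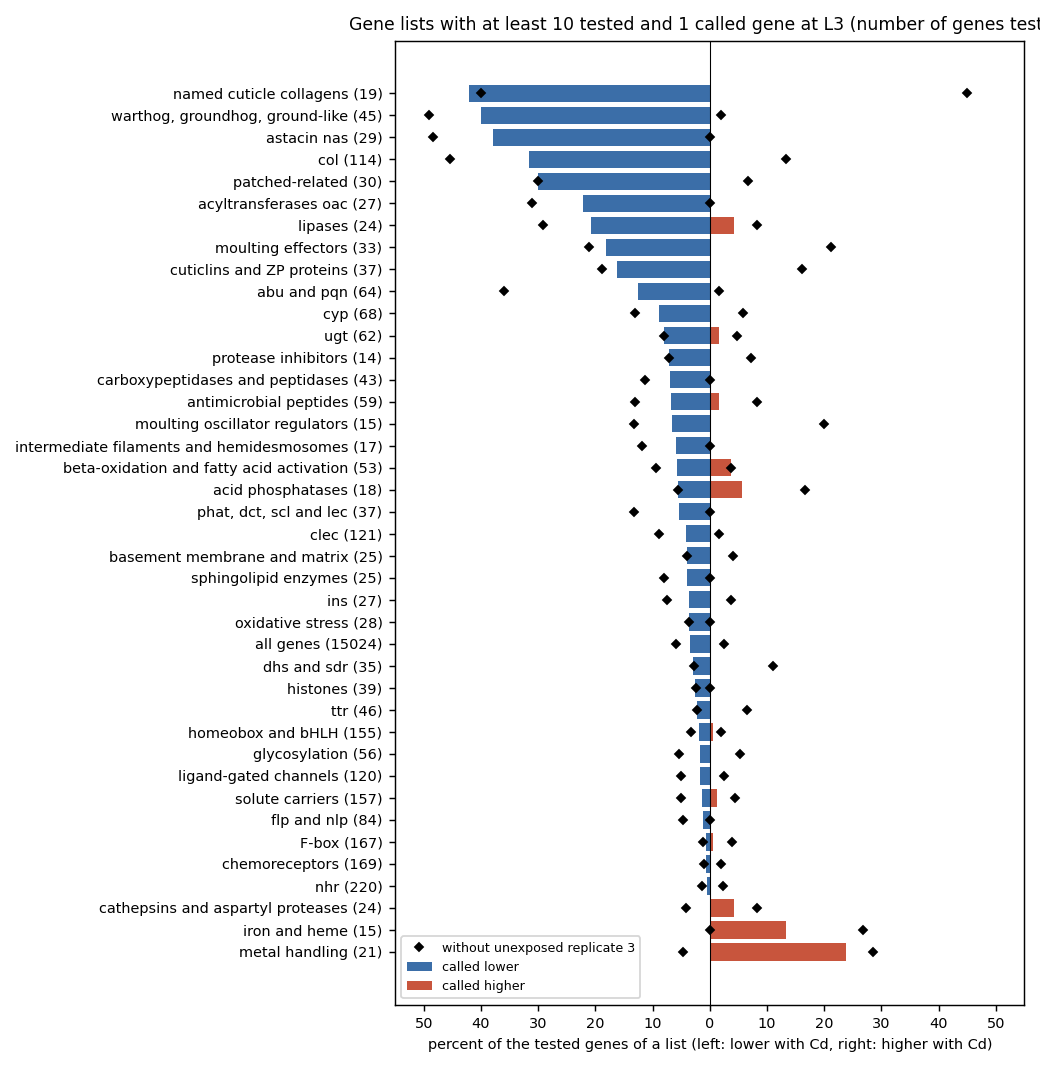
Percent of the tested genes of each gene list that were called lower (blue, left) or higher (red, right) at L3, with the number tested in brackets, for lists in which 10 or more genes were tested and 1 or more called. Black diamonds give the same shares without unexposed replicate 3. Named cuticle collagens, hedgehog-related and astacin genes lead the lower side at 42.1%, 40% and 37.9%, against 3.38% of all genes.

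Many cuticle collagens fell, while others were at higher values in exposed larvae. Of 114 tested *col* genes 36 (31.6%) were lower and 0 higher, and without unexposed replicate 3 it was 54 lower and 16 higher. Of 19 tested collagens named for their body shape phenotype 8 were lower and 0 higher, yet the median over them was 0.54. This list had 9 higher and 8 lower calls of 20 without unexposed replicate 3. *dpy-13* had 3714, 3150 and 1643 CPM in unexposed larvae and 435, 498 and 805 CPM in exposed larvae (log2 fold change -2.29, SE 0.35, adjusted p = 0.0146), and *dpy-5*, *dpy-4* and *rol-6* were lower with it. *dpy-7*, in contrast, had 146, 135 and 380 CPM against 340, 336 and 389 CPM. Its log2 fold change of 0.69 did not pass the test (adjusted p = 0.289), and it was 1.34 without unexposed replicate 3 (adjusted p = 3.72e-05).

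*dpy-7* was 1 of a set of genes in which unexposed replicate 3 lay with the exposed libraries and not with its own group. *noah-1*, a zona pellucida domain protein of the epidermal surface, had 314, 317 and 857 CPM in unexposed larvae and 815, 836 and 865 CPM in exposed larvae, so the groups overlapped. *mlt-11*, a protease inhibitor needed for moulting, had 348, 328 and 1028 CPM against 955, 972 and 1032 CPM. *nhr-23*, the nuclear receptor that drives the moulting cycle, had 48.0, 55.9 and 94.1 CPM against 105, 114 and 106 CPM. The adjusted p with all libraries was 0.247, 0.272 and 0.107 for these genes, with log2 fold changes of 0.76, 0.80 and 0.71. Without unexposed replicate 3 the log2 fold changes were 1.41, 1.55 and 1.06, each called higher. The same held for *dpy-10*, *lpr-3*, *sym-1*, *peb-1*, *lin-29* and the tubulin gene *tba-8*, all chosen after their values were seen. As the genes of this set were picked for where that library lay, their larger change without it follows from the choice. Of 33 tested moulting effectors 6 were lower and 0 higher with all libraries, and 7 were lower and 7 higher without this one. Whether the age or moulting phase of the populations had a part in these differences was not tested.

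The same library was intermediate for nearly all lower genes. Unexposed replicate 3 was the unexposed library nearest to the exposed group in 488 of the 508 lower genes. At the median its level lay 37.7% of the way from the exposed mean to the mean of the other unexposed libraries. For the 37 higher genes the corresponding median was 85.1%. In the exposed group, replicate 3 was the library nearest to the unexposed ones in 384 of the 508 lower genes.

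**Figure D4:**
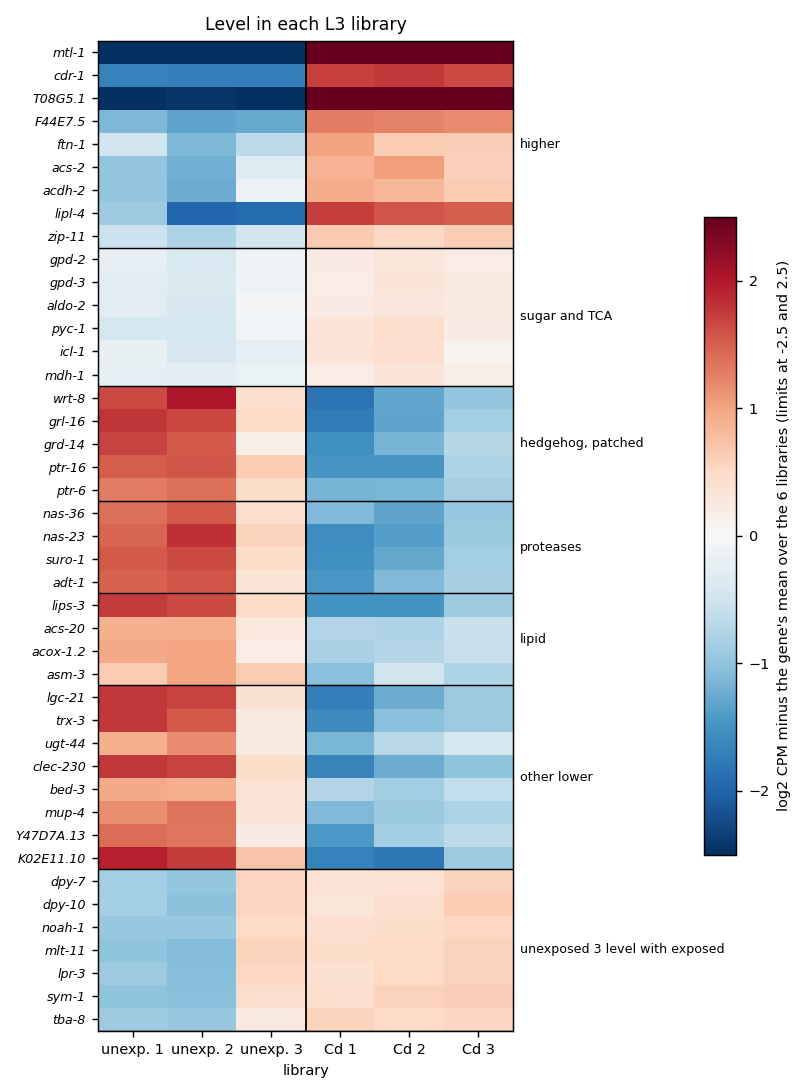
Log2 CPM minus the mean of the gene over the 6 L3 libraries (colour, limited to -2.5 and 2.5) for genes of 7 groups in the 3 unexposed and 3 exposed libraries. For most genes of the lower groups, though not for *asm-3*, unexposed replicate 3 has a paler red than the other unexposed libraries. In the last group its red matches that of the exposed libraries, as for *mlt-11* with 1028 CPM beside 955 to 1032 CPM.

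Detoxification enzymes changed gene by gene. Of 62 tested UDP-glucuronosyltransferases 1 was higher and 5 lower, among them *ugt-44* (36, 43.7 and 22.5 CPM against 8.80, 11.9 and 14.3 CPM, log2 fold change -1.54, SE 0.27, adjusted p = 0.0206). Of 68 tested cytochrome P450 genes 6 (8.82%) were lower and 0 higher, with *cyp-37B1* (-1.75), *cyp-34A4* (-1.55) and *cyp-35A5* (-1.23) as the largest changes among the 6. *cyp-13A4* (2.06, adjusted p = 0.0624) and *cyp-29A4* (1.83, adjusted p = 0.151) had larger values on the higher side and did not pass the test. The cytochrome P450 list without unexposed replicate 3 had 4 higher calls, these genes among them, and 9 lower, and the UDP-glucuronosyltransferases had 3 higher and 5 lower. Of 45 tested glutathione S-transferases 0 were called by the quasi-likelihood test of edgeR, and 7 passed an unadjusted p of 0.05 in each direction. *gst-10* was lower at a log2 fold change of -0.75 (adjusted p = 0.0124), under the fold minimum. DESeq2's Wald test called 2 of them higher and 2 lower, and without unexposed replicate 3 the family had 6 higher and 2 lower calls. The higher ones included *gsto-1*, with 43, 40.8 and 80.1 CPM in unexposed larvae and 116, 96.7 and 97.1 CPM in exposed larvae. *gst-18* (1.25, adjusted p = 0.11) and *gst-19* (1.17, adjusted p = 0.0548) were below 1 CPM in unexposed replicates 1 and 2.

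Stress response lists were nearly without calls. Of 47 tested heat shock genes 0 were called, with 6 higher and 7 lower at an unadjusted p of 0.05, shares near those of all genes tested, and 0 calls without unexposed replicate 3. *hsp-16.2* had 8.27, 8.98 and 11.7 CPM in unexposed larvae and 11.7, 8.12 and 9.22 CPM in exposed larvae (log2 fold change 0.01, SE 0.19), and *hsp-70* had a log2 fold change of 0.08 (SE 0.17). The BiP homolog *hsp-4*, a chaperone of the endoplasmic reticulum, had 364, 365 and 315 CPM against 217, 250 and 262 CPM, a log2 fold change of -0.52 (SE 0.10, adjusted p = 0.0257) and so under the fold minimum. Of 22 genes of endoplasmic reticulum stress and 13 of mitochondrial stress 0 were called, with 7 and 4 at an unadjusted p of 0.05, and neither list had a call without unexposed replicate 3. The 1 call among 28 genes of the oxidative stress list was the thioredoxin gene *trx-3*, which was the list's only call also without that library. It was lower, with 137, 116 and 47.5 CPM against 13.2, 19.3 and 21.3 CPM (log2 fold change -2.48, SE 0.39, adjusted p = 0.0159). The superoxide dismutase gene *sod-3* had a log2 fold change of -0.15 (SE 0.16) and *gcs-1*, for the first step of glutathione synthesis, 0.28 (SE 0.09, adjusted p = 0.118).

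Immune genes had a few lower calls. Of 121 tested C-type lectin genes 5 (4.13%) were lower and 0 higher, a share near that of all genes tested, and 2 were higher and 11 lower without unexposed replicate 3. *clec-230* had 37.5, 35.5 and 15.2 CPM in unexposed larvae and 3.46, 4.70 and 5.48 CPM in exposed larvae (log2 fold change -2.69, SE 0.36, adjusted p = 0.0124). Among 59 antimicrobial peptide and caenopore genes 4 were lower and 1 higher, with *abf-2* (-1.70), *nlp-34* (-1.4) and *spp-13* (-1.27) lower and *abf-5* higher. That list had 5 higher and 8 lower calls without unexposed replicate 3. *irg-5* was lower at -1.21 (adjusted p = 0.0133), and 0 of 13 lysozymes and 0 of 25 *pals* genes were called. At an unadjusted p of 0.05 the lysozymes had 2 higher and 8 lower genes and the *pals* genes 5 and 6. In the fit without unexposed replicate 3, 1 lysozyme gene was called in each direction and 2 *pals* genes were higher.

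Few regulators, receptors and channels were called. *bed-3*, a zinc finger factor required for moulting, had 42.5, 41.5 and 28.3 CPM in unexposed larvae and 13.3, 12.2 and 14.4 CPM in exposed larvae (log2 fold change -1.49, SE 0.17, adjusted p = 0.0124). In the list of homeobox, bHLH, bZIP and zinc finger factors *hlh-19* (-1.53), *hlh-33* (-1.35) and *ztf-16* (-1.23) were lower, and of 220 nuclear hormone receptors only *nhr-127* (-1.37) was called. The ligand-gated channel genes *lgc-21* and *lgc-22* were the 2 lower calls of 120. *lgc-21* had 189, 179 and 71.9 CPM against 17, 23.3 and 29.7 CPM (log2 fold change -2.65, SE 0.38, adjusted p = 0.0133). The insulin-like gene *ins-12* (-1.66) was the 1 call among 27, and 0 of 63 potassium channel and 0 of 48 synaptic genes were called, with 13 and 3 of them lower at an unadjusted p of 0.05. When unexposed replicate 3 was left out, the nuclear hormone receptors had 5 higher and 3 lower calls, the ligand-gated channels 3 and 6 and the insulin-like genes 1 and 2, while the potassium channel and synaptic lists had 0. *daf-5*, a transcriptional partner of the TGF-beta pathway, stood at 0.65 (adjusted p = 0.0267) under the fold minimum.

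The link between epidermis and muscle and the transport genes gave single calls. *mup-4*, a transmembrane protein of the epidermal attachments, had 547, 627 and 306 CPM in unexposed larvae and 114, 130 and 141 CPM in exposed larvae (log2 fold change -1.95, SE 0.25, adjusted p = 0.0124). It was the 1 call among 17 intermediate filament and hemidesmosome genes, and 0 of 57 muscle genes were called, with 6 lower at an unadjusted p of 0.05. These lists had 2 and 1 lower calls without unexposed replicate 3. Among 157 solute carriers 2 were higher and 2 lower, the lower ones being the nucleoside transporter *ent-3* (-2.51) and the sugar transporter *swt-5* (-1.68). Without unexposed replicate 3 it was 7 higher and 8 lower. Of 48 ABC transporters 0 were called, with 8 higher and 7 lower at an unadjusted p of 0.05, and *pgp-9* stood at 0.52 (adjusted p = 0.0131). Of 49 tested without unexposed replicate 3, 1 was higher and 2 were lower.

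Genes of growth and of the germ line were almost without calls at this stage. Of 79 cytosolic ribosomal protein genes 0 were called and 0 had an unadjusted p of at most 0.05, with a median log2 fold change of -0.02 and 0 calls without unexposed replicate 3. Of 37 DNA replication, 42 mitosis, 33 germ granule and germ line, and 28 meiotic genes 0 were called, with medians of 0.12, 0.11, 0.14 and 0.19 and 4, 6, 11 and 8 genes higher at an unadjusted p of 0.05. The first 2 of these counts are near the 11% of all genes tested. DESeq2's Wald test also called 0 genes in each of these 4 lists, and so did edgeR's test without unexposed replicate 3. The exposed libraries lay above the unexposed ones, without overlap, in 14 DNA replication, 15 mitosis, 15 germ granule and germ line and 11 meiotic genes, against 15.8% of all genes tested. They lay below them in 2 DNA replication genes and in 0 genes of the other lists, against 17.1% of all genes tested. *prg-1*, a Piwi protein of the germ line, had 73, 78.8 and 77.3 CPM in unexposed larvae and 88.7, 95.6 and 86.5 CPM in exposed larvae (log2 fold change 0.24, SE 0.07, adjusted p = 0.0808). Summed germ line markers lay between 898 and 943 CPM in unexposed larvae and between 995 and 1005 CPM in exposed larvae. The part of a different share of germ cells in these values was not tested. Histones had 1 lower call of 39, the linker histone *hil-7* (-1.19), and 1 without unexposed replicate 3.

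Lower genes with only a sequence name were the majority. They made up 297 of the 508 genes (58.5%), against 48.5% of all genes tested. *K02E11.10* (chromosome V, 14239942 to 14241151) had 443, 388 and 190 CPM in unexposed larvae and 35.8, 33.7 and 61.8 CPM in exposed larvae (log2 fold change -2.96, SE 0.37, adjusted p = 0.0124). *F23F1.2* (chromosome II, 34204 to 35262) had 9.90, 13.3 and 4.22 CPM against 0.70, 0.90 and 1.06 CPM, a log2 fold change of -3.37 (SE 0.45, adjusted p = 0.0124). In level the largest difference between group means among the lower genes was at *Y47D7A.13*, with 4845, 4632 and 2124 CPM against 682, 1004 and 1165 CPM. *F41F3.3* was close to it, with 4683, 3982 and 1746 CPM against 396, 511 and 791 CPM. All 4 genes had unexposed replicate 3 as the lowest of its group and no overlap.

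Symbols that RefSeq gives to the sequence names, looked at after their values were seen, added further families. Genes of the *mam* family, named for the MAM domain, were lower in 6 of 8 tested cases, with a median of -1.70. Genes with a *dbd* symbol were lower in 8 of 14 (median -1.79), those with an *idpp* symbol in 5 of 16 (median -1.80) and those with an *idpb* symbol in 2 of 5 (median -2.14). Without unexposed replicate 3 these counts were 7, 10, 12 and 5, with 1 higher *dbd* and 2 higher *idpp* genes. Genes with an *srlf* symbol were lower in 4 of 15 cases, with or without that library, at a median of -0.07. Of 5 tested chitinase genes 2 were lower, and 3 without that library.

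Lower genes lay on every nuclear chromosome, between 1.96% of the genes tested on chromosome III and 4.18% on the X chromosome. Chromosome V held 15 of the 37 higher genes, which was 0.471% of its 3182 genes tested, against 0.246% of all genes. For 10.5% of the lower genes with a tested neighbour downstream in coordinate order, that neighbour was lower too, against 3.38% of all genes. There were 5 runs of at least 3 adjacent lower genes, the longest of them *C34E7.3*, *C34E7.4*, *C05E7.2* and *C05E7.1* on the X chromosome (12930336 to 12943547), which lie on both strands. Whether the counting used strand is not given in the sources used here, so reads of overlapping neighbours cannot be told apart.

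At L4 after 47 h most of the lower genes did not keep their direction, while the higher genes were mixed. In the 6 L4 libraries, 6 of 16201 genes were called higher (0.037%) and 1 lower (0.00617%). Of the 37 genes higher at L3, 24 had a log2 fold change above 0 at L4 and 13 below 0, with a median of 0.29. Only 4 of the 37 were called at L4. Of the 508 lower genes 480 were tested at L4, and 455 of these had a value above 0, with a median of 0.81 and 0 calls. The median over all genes tested at L4 was 0.03, and their share above 0 was not computed, so these counts have no background share. L4 libraries of a group differed beyond sampling noise, with a chi-square per degree of freedom of 3.33 to 84.9. In a fit of all 12 libraries the Cd effect differed between the stages for 963 genes with the L3 effect below that at L4 (5.6% of 17196) and for 109 with it above (0.634%). Among the L3 calls these were 460 of the 508 lower and 18 of the 37 higher genes, which had been selected on the L3 contrast itself.

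Single genes showed different relations of the stages. *F44E7.5* stood at 2.48 on the log2 scale at L3 and 0.13 at L4, a difference of 2.36 (adjusted p = 0.000298 in the interaction fit). *ftn-1* stood at 1.5 and -0.72, a difference of 2.24 (adjusted p = 0.00704). *lipl-4* stood at 3.16 and 2.70, and the difference did not pass the test (adjusted p = 0.585). Among the lower genes *asm-3* and *cest-1* had negative values at both stages, -1.51 and -1.38 for *asm-3* and -1.89 and -1.26 for *cest-1*, without an L4 call. *grl-16*, with -2.68 and 1.00, had a difference of -3.67 (adjusted p = 0.00417).

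**Figure D5:**
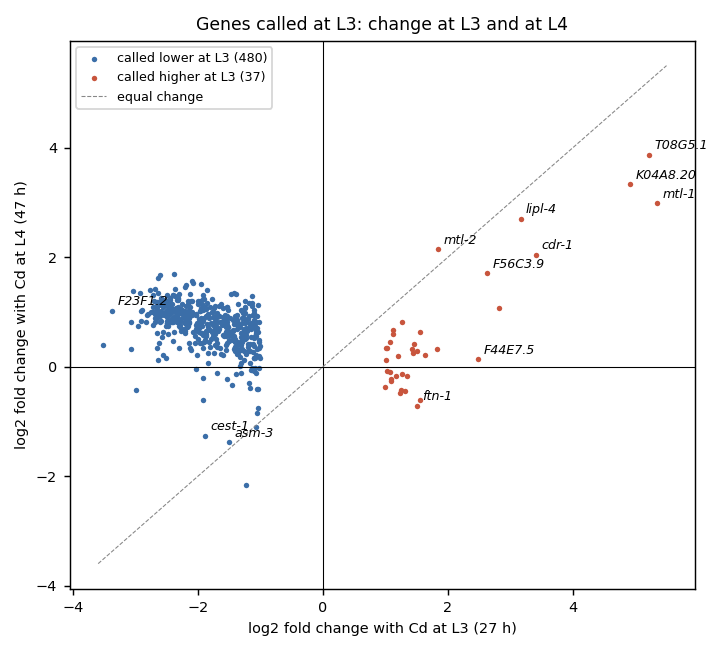
Log2 fold change with Cd at L3 (x) and at L4 (y) for genes called at L3 and tested at both stages, 1 point per gene, with the dashed line marking equal change. Of the 480 lower genes (blue) 455 lie above 0 at L4, and *asm-3* and *cest-1* are among the 25 below it. The L4 median over all genes tested was 0.03.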

How the data were processed

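The authors sequenced poly-A RNA of 3 biological replicates per group as paired-end reads. The submitters' processing notes name Trimmomatic 0.36, STAR 2.5.2b, featureCounts of Subread 1.5.2, DESeq2 and the WBcel235 genome. The deposited values are raw counts of reads per gene, whole numbers without normalization, which the authors did not pool. The annotation release, the strand setting and the handling of multiply mapped reads are not given in the sources used here. The 46546 named genes were used, and an entry without a name (0.0319% to 2.01% of the counts of an L3 library) was left out.

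Libraries were grouped by title and treatment. No 2 L3 libraries of a group agreed within sampling noise (chi-square per degree of freedom 13.1 to 99.2). Computations used R 4.3.3, edgeR 4.0.16, limma 3.58.1 and DESeq2 1.42.0. The quasi-likelihood test of edgeR ran on TMM-normalized counts of the 6 L3 libraries after the filter of filterByExpr, with p-values adjusted by Benjamini and Hochberg's method over every gene tested, and the thresholds of the study (adjusted p of at most 0.05 and a fold of at least 2). The common biological coefficient of variation was 0.155. SE was derived from the log2 fold change and the F statistic. An interaction term in a model of the 12 libraries tested whether the Cd effect differed between L3 and L4. The procedure was tested on simulated counts, drawn with the same scaled mean for every library of a group. No simulated library stood apart as unexposed replicate 3 does, so that setting was not covered.

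The members and gene lists were chosen with earlier results of these data known, and no list was tested. Named were the 12 largest folds per direction among called genes with non-overlapping groups and a mean of at least 1 CPM. To these came the 6 called genes per direction with the largest CPM differences and up to 3 called genes per list and direction. In a list with none the gene with the lowest p was taken. The same was done for the 10 name families with the largest share of calls, and 10 reference genes were added. Other genes named were chosen after their values were seen. Alternatives were other normalizations, no filter on low counts, DESeq2's Wald test, a replicate block, a test against the fold, an unadjusted p, a fit of all libraries, and leaving out each library. At these depths genes with under 1 CPM rest on few counts. Positions are those of WBcel235.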

Additional observations from a re-analysis of the deposited data

Results flagged for a closer look

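The Cd effect differed between L3 and L4 for 478 of the 545 genes called at L3, tested as an interaction in edgeR over all 12 libraries. These genes had been selected on the L3 values, which also enter that test. Among the genes with the largest folds at L3, the L3 effect was above the L4 effect by a log2 difference of 2.39 for *mtl-1*, 2.36 for *F44E7.5*, 1.76 for *pho-10*, 1.43 for *acs-2*, 1.38 for *cdr-1* and 1.36 for *T08G5.1*. It was below the L4 effect, with log2 differences of -4.40 for *Y52B11B.1*, -4.39 for *F23F1.2*, -4.25 for *C27D9.2*, -3.93 for the C-type lectin gene *clec-229*, -3.92 for *R12E2.15* and -3.87 for *oac-30*. The remaining differences were -3.75 for *W02F12.8*, -3.74 for *F45B8.3*, -3.73 for *K01D12.9*, -3.70 for *K02E11.10*, -3.65 for *wrt-8* and -3.39 for *M01B2.8*. Groups of 3 libraries were not screened for single outlying samples.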

How the results depend on the processing

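The count of 545 genes called at L3 was 5 with a replicate block, 6 in a test against a fold of 2 and 906 with an unadjusted p, and it lay between 5 and 1267 when a library was left out. The fewest calls came without unexposed replicate 2 or exposed replicate 2 and the most without unexposed replicate 3. With other normalizations, no filter on low counts, DESeq2's Wald test or all 12 libraries in the fit it was 536, 520, 782, 767 and 703. The replicate numbers were not taken to pair the libraries, since they are not said to mark a shared culture or day. Same-numbered libraries deviated from their group means with correlations of -0.239, 0.125 and -0.245. With 3 libraries per group these values cannot show whether the libraries were paired. The count of 478 genes whose effect differed between the stages was 487 with the replicate block and 415 to 499 without single libraries. Of the 114 named genes called, 0 changed direction in any alternative, which their fold minimum and non-overlapping groups made likely beforehand. With the block 5 of them were still called. Reference genes with changes near 0 did turn. With upper quartile normalization *rla-1* was at 0.026 and *tba-1* at 0.00777. Leaving out a library gave -0.088 to 0.057 for *rla-1*, -0.075 to 0.014 for *tba-1*, -0.030 to 0.20 for *csq-1*, -0.0066 to 0.085 for *tbb-2* and -0.020 to 0.11 for *Y45F10D.4*. A search for promoter motifs was not run. Low counts such as those of *K04A8.20* give wide errors at this depth.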

Other observations

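Short non-coding RNAs were high in a single unexposed library. *R144.15*, a non-coding RNA of 299 bases, had 57.6 CPM in unexposed replicate 1 and between 0.10 and 0.54 CPM in the other 5 libraries. *F31C3.15* had 465 CPM in unexposed replicate 1 against 6.12 to 21.5 CPM elsewhere, and the snoRNA *Y24D9A.9* had 21.2 CPM against 0.14 to 0.54 CPM. The same library had the fewest counts (23899991) and the largest share of counts without a gene name (2.01%). None of these 3 genes passed the test, with adjusted p of 0.118, 0.218 and 0.129 from the quasi-likelihood test of edgeR.

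Further families had few calls. Of 46 tested *ttr* genes, which are named for their likeness to transthyretin, *ttr-12* alone was called (-2.15), and without unexposed replicate 3 there were 3 higher calls and 1 lower. Of 35 *nspa* to *nspe* genes 0 were called by the quasi-likelihood test of edgeR, with 1 higher and 6 lower at an unadjusted p of 0.05 and 1 lower call by DESeq2. Their median log2 fold change was -0.30, with 24 genes below 0, and 6 (17.1%) were called lower without unexposed replicate 3, against 5.84% of all genes. Of 169 tested chemoreceptor genes, from 1607 in the files, *srh-237* was the 1 call, and 4 were higher and 2 lower without unexposed replicate 3. *srh-237* had 5.33, 6.07 and 6 CPM in unexposed larvae and 3.03, 2.88 and 2.51 CPM in exposed larvae (log2 fold change -1.05, adjusted p = 0.0129). The pharyngeal gland gene *phat-1* was lower at -2.21 (adjusted p = 0.049). It was 1 of 2 lower calls (5.41%) among 37 tested *phat*, *dct*, *scl* and *lec* genes, against 3.38% of all genes. Among 13 pharyngeal markers it was the only call, while 10 of them were above 0 (median 0.29). Without unexposed replicate 3 these lists had 5 and 3 lower calls and 0 higher.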
